A study of Mus musculus with 4 samples.

Results

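In all, 10 genes of antiviral effector proteins, often grouped as restriction factors, were followed in activated mouse B cells: Ifitm2, Ifitm3, Rsad2, Cmpk2, Mx1, Mx2, Zc3hav1, Isg20, Ddx60 and Bst2. They were taken by gene symbol from the deposited count table, and 10 of its 55401 gene rows matched. The data are poly(A) RNA sequencing of C57BL/6 splenic B cells purified with anti-CD43 beads, which hold back most other leukocytes. Culture lasted 36 h and contained anti-CD40 at 1 µg/ml, a mimic of T-cell help, with anti-IgM at 10 µg/ml, which crosslinks the antigen receptor. Wild-type mice gave 2 libraries, and another 2 are labelled as a conditional knockout (cKO) of Adar1 in the B lineage, all 4 under the same culture. The labels name neither the Cre driver nor the deleted exons, nor the age, sex or number of mice.

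Type I interferon binds its receptor, JAK kinases activate STAT proteins, and these join IRF9 in the complex ISGF3, which binds interferon-stimulated response elements (ISREs) in promoters. Restriction factors are among the products of this programme, and between them they block many steps of a viral life cycle: entry, copying of nucleic acid, survival of viral RNA, or release of particles. ADAR1 edits adenosine to inosine in double-stranded RNA, and loss of its interferon-inducible form is known to let self RNA trigger the cytosolic sensor MDA5. Here the 2 genotypes are compared to see how much RNA of each effector the stimulated B cells held.

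Total counts lay between 17327480 and 19669651 per library. Ribosomal RNA rows held 0.525% of the counts in wild-type library 2 and 0.0947% to 0.125% in the other 3; the 10 genes were called the same way without that library. The targeted gene, current symbol Adar, stood at 137 and 149.97 CPM in wild type (counts scaled to a common library total with TMM factors) and at 218 and 233 CPM in the libraries labelled cKO. Its transcript was thus higher, not lower, under the knockout label (log2 change 0.65 ± 0.063 SE). The term cKO-labelled is therefore used from here on, and each direction below rests on the label. A count summed over all exons does not show whether some of them were deleted. All 8 B cell markers were tested, and they summed to 7807 and 7467 CPM in wild type and 6813 and 7225 CPM in cKO-labelled libraries. Of these Cd74 was called higher, 5 were called lower, among them Cd79a, Cd79b, Pax5 and Cd22, and Ms4a1 and Ebf1 were not called.

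Of the 10 effector transcripts, 9 rose in the cKO-labelled libraries and Ifitm2 fell. All 10 genes passed the filter on low counts, 9 were called higher and 1 lower at a Benjamini-Hochberg adjusted p under 0.05 in edgeR's quasi-likelihood test (2 against 2 libraries). Of all 14180 genes tested, 12.2% were called higher and 9.54% lower. The rise was at least 2-fold (log2 change of 1 or more) for 7 of the 10, against 4.06% of all genes. Both cKO-labelled libraries lay above both wild-type libraries for 9 of the 10 (29.2% of all genes) and below them for 1 of the 10 (28.7%). The median log2 change was 1.92 for the 10 genes and -0.0058 for all genes tested. The genes were picked as antiviral effectors with earlier results of these data known.

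**Figure D1:**
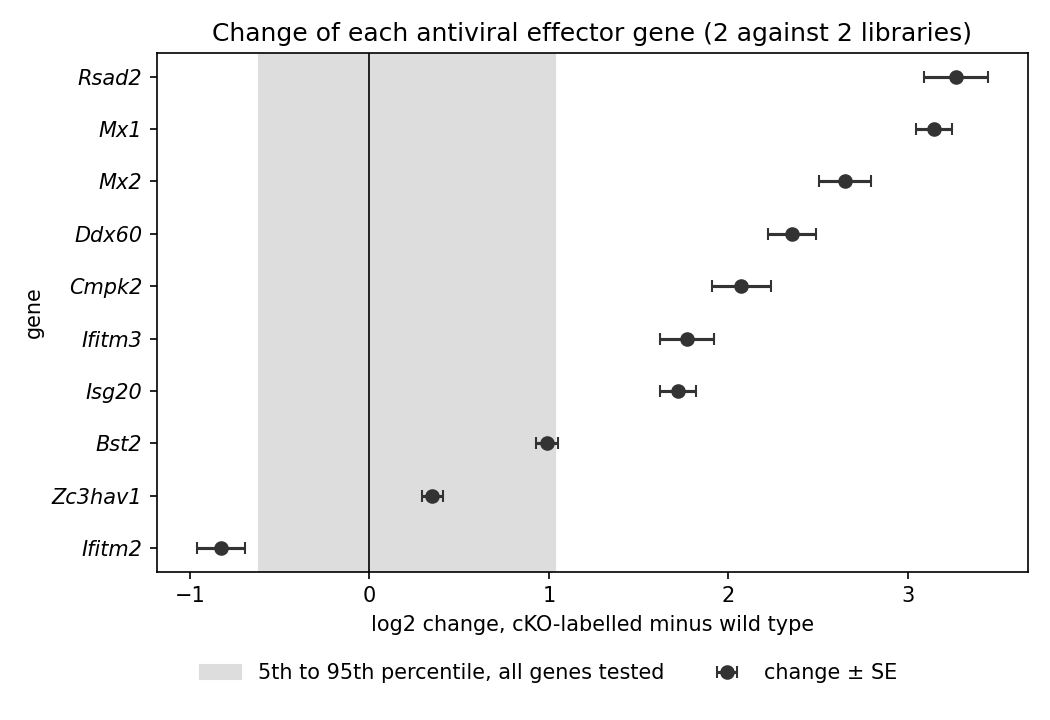
Log2 change (cKO-labelled minus wild type) of each effector gene with its SE, 2 libraries per genotype; the grey band spans the 5th to the 95th percentile of all genes tested, -0.62 to 1.04. In total 7 genes lie above the band, Bst2 and Zc3hav1 inside it, and Ifitm2 below it.

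Levels of different genes were compared per length, as FPKM (fragments scaled to exonic length and to the library total). In wild type the order from high to low was Bst2 (84.0 ± 4.50 FPKM, mean ± SD, n = 2), Zc3hav1 (40.1 ± 1.20), Ifitm2 (30.3 ± 1.55), Ifitm3 (9.34 ± 0.163), Isg20 (8.53 ± 0.148), Mx1 (2.47 ± 0.113), Cmpk2 (1.46 ± 0.495), Mx2 (1.36 ± 0.262), Ddx60 (0.735 ± 0.0354) and Rsad2 (0.530 ± 0.0141). Only Cmpk2 and Mx2 had overlapping values among neighbours in that order. In the cKO-labelled libraries Bst2 (168 ± 2.69 FPKM) and Zc3hav1 (51.3 ± 1.19) were again first, followed by Ifitm3 (32.0 ± 3.72) and Isg20 (28.2 ± 2.59), whose values overlapped. Mx1 (21.9 ± 2.06) stood above Ifitm2 (17.1 ± 1.52), then came Mx2 (8.65 ± 0.141), Cmpk2 (6.21 ± 0.120), Rsad2 (5.14 ± 0.410) and Ddx60 (3.77 ± 0.318). Ifitm2 thereby moved from the 3rd to the 6th place. The span between the highest and the lowest of the 10 narrowed from 158-fold to 44.4-fold.

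Rsad2, the lowest of the 10 in wild type, had the largest ratio, and Bst2, the highest, had the largest gain in level. Rsad2 was 9.68-fold higher in CPM and gained 4.61 FPKM, whereas Bst2 was 1.99-fold higher and gained 83.6 FPKM. Ifitm3, Isg20 and Mx1 gained 22.6, 19.6 and 19.5 FPKM, and Ifitm2 changed by -13.2 FPKM. Summed over the 10 genes, the level was 175.6 and 181.9 FPKM in wild type and 349.96 and 333.6 FPKM in cKO-labelled libraries. In bulk RNA, more RNA per cell and a larger share of cells making it cannot be told apart.

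**Figure D2:**
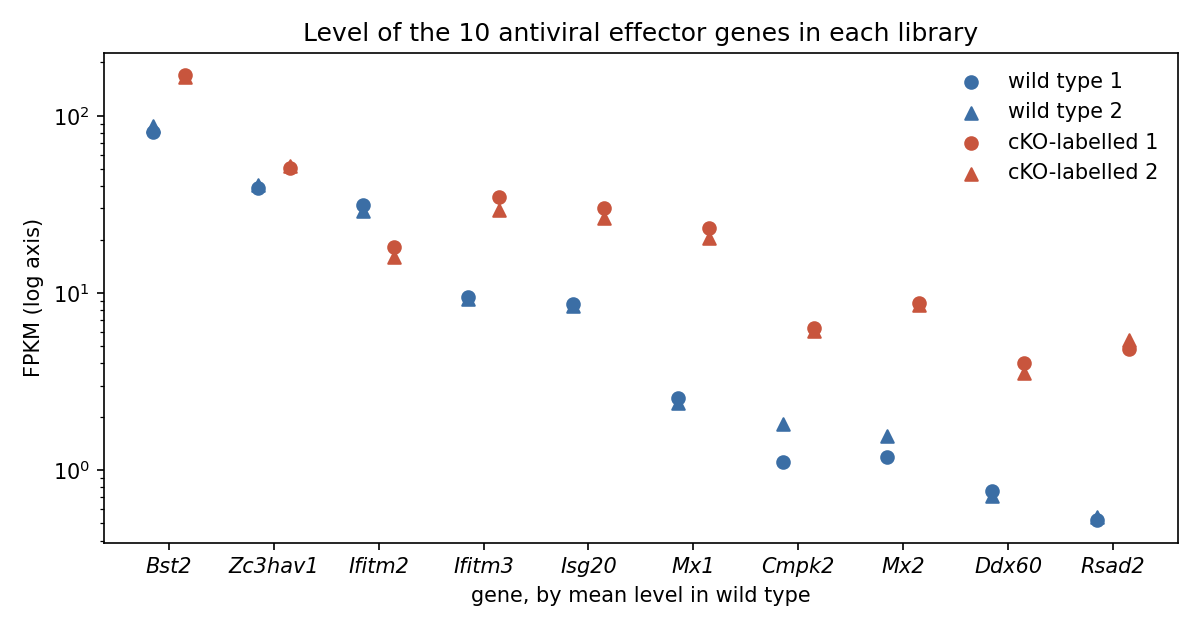
FPKM of the 10 effector genes on a log axis, ordered by their mean in wild type; each point is 1 library. The cKO-labelled points lie above the wild-type points for every gene but Ifitm2, and the wild-type points of Cmpk2 and Mx2 spread the most.

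The 2 IFITM genes, whose small membrane proteins keep viral envelopes from fusing with endosomes, went in opposite directions. Ifitm3 (ENSMUSG00000025492, chromosome 7, 141009586 to 141010770, minus strand, GRCm38) stood at 6.44 and 6.25 CPM in wild-type libraries 1 and 2 and at 23.4 and 19.9 CPM in cKO-labelled libraries 1 and 2. Its lowest cKO-labelled value was 3.09-fold above its highest wild-type value, and the log2 change was 1.77 ± 0.150 (adjusted p 3.64e-09, edgeR). Ifitm2 (ENSMUSG00000060591, chromosome 7, 140954837 to 140955987, minus strand) stood at 20.7 and 19.1 CPM in wild type and at 11.9 and 10.5 CPM in the cKO-labelled libraries. The groups did not overlap here either, and the log2 change was -0.83 ± 0.135 (adjusted p 6.67e-05, edgeR). Their starts lie 54.8 kb apart.

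Per base of exon, Ifitm3 had 0.301 and 0.316 of the counts of Ifitm2 in wild type, and 1.91 and 1.83 times those of Ifitm2 in the cKO-labelled libraries. By these counts Ifitm2 was the more abundant of the pair in both wild-type libraries and Ifitm3 in both cKO-labelled ones. The ratio differed 6.05-fold. An exact two-sided permutation test over the 4 libraries gave p = 0.333, the smallest value that 2 against 2 allows. Other IFITM genes were near or at 0. Ifitm1, in the same cluster, had 14 and 8 counts in wild type against 2 and 4 and was too low to be tested. Ifitm5 and Ifitm6 had at most 1 count in any library, and Ifitm7 and Ifitm10 had none (3 counts, or 0.153 to 0.173 CPM, is the limit a count of 0 allows, for counting error only). Pgghg, on the far side of Ifitm2, changed by -0.14 and was not called.

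The counts of Ifitm2 rest on a sequence that is partly shared. In GENCODE M21 transcripts, 34.9% of the 100-base windows of Ifitm2 occur in another gene's transcripts, those of the pseudogenes Gm11951 and Gm8865 and of the overlapping model Gm45717. For Ifitm3 none were shared. With 50-base windows the shares were 48.5% for Ifitm2 and 10.0% for Ifitm3, and at most 4.38% for any other of the 10. Some of these 50-base windows were shared between Ifitm2 and Ifitm3 themselves, and some between Ifitm3 and Ifitm1. Gm45717 shares strand and 268 of the 655 exonic bases with Ifitm2. These 3 models had 0 counts in each library except 1 count of Gm11951 in wild-type library 2. The rule by which shared reads were counted is unknown here, so the level of Ifitm2 is uncertain. So is its ratio to Ifitm3 per base of exon, and with it which of the pair is the more abundant. Whether the shared sequence bears on the difference between genotypes was not tested.

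Promoters of the pair are shown because the genes changed in opposite directions. RefSeq windows on GRCm38.p6, from 250 bases before to 50 after the start, were searched on both strands for the core of the ISRE, that is GAAA, 2 bases of any kind and GAAA. It occurs in 3.44% of the 32851 windows of the mouse set, or in 3.99% of its 27025 genes. Windows were found for 8 of the 10 genes, and 5 of these 8 held a match: Ifitm2, Ifitm3, Rsad2, Bst2 and Ddx60. No entry was found for Mx1 and Mx2. In the lines below capitals mark the matches, which are descriptions of letters and not sites shown to be bound. The Ifitm3 window (chr7:141010695-141010994, minus strand) has 2, which begin 2 and 19 bases past the RefSeq start. The Ifitm2 window (chr7:140955912-140956211, minus strand) has 1, which begins 46 bases before the start.
Ifitm3: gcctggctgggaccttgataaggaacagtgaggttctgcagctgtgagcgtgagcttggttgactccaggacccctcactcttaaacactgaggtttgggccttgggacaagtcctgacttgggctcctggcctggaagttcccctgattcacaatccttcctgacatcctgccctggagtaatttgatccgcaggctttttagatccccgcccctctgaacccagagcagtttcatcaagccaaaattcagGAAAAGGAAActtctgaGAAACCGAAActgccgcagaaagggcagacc
Ifitm2: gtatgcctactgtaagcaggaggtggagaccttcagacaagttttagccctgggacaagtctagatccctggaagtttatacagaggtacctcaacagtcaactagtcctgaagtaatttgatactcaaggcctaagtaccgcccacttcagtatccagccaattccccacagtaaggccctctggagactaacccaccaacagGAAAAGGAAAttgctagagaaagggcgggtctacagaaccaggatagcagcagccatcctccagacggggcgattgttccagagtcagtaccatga
The windows of both genes thus held a match, past the start for Ifitm3, which rose, and before it for Ifitm2, which fell. Whether these matches bear on the directions was not tested. A second element, the gamma-activated sequence (TTC, 3 bases of any kind, GAA; 8.30% of all windows; counted separately, also where it shares bases with an ISRE core), which reads the same on both strands, had 1 match in the Ifitm3 window and none in the Ifitm2 window.

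Rsad2 and Cmpk2, neighbours on chromosome 12 with starts 12.8 kb apart on opposite strands, both rose. Rsad2 encodes viperin, a radical SAM enzyme that turns CTP into a chain terminator of viral RNA synthesis, and Cmpk2 a mitochondrial kinase of pyrimidine nucleotides. Rsad2 (ENSMUSG00000020641, chromosome 12, 26442746 to 26456452) stood at 2.26 and 2.34 CPM in wild type (39 and 46 counts) and at 20.99 and 23.6 CPM in cKO-labelled libraries (378 and 411 counts). Its log2 change of 3.27 ± 0.178 (adjusted p 1.26e-12, edgeR) placed it 47th from the top of the 14180 genes and first of the 10. Cmpk2 (ENSMUSG00000020638, chromosome 12, 26469204 to 26479837) stood at 4.64 and 7.53 CPM in wild type and at 26.2 and 25.5 CPM in cKO-labelled libraries. The wild-type libraries differed from each other more than the cKO-labelled ones did, yet all 4 cKO-to-wild-type ratios lay between 3.39 and 5.64. The log2 change was 2.07 ± 0.164 (adjusted p 1.15e-09, edgeR), or 1.77 without wild-type library 1 and 2.47 without wild-type library 2.

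Viperin's transcript gained on that of its neighbour. The ratio of Rsad2 to Cmpk2 per base of exon was 0.468 and 0.298 in wild type, as against 0.769 and 0.887 under the knockout label, a 2.21-fold difference without overlap (exact permutation p = 0.333, the smallest possible). The rows of the table within 20 kb of the pair, Gm47799 and Gm46344, had 0 counts in all 4 libraries. The Rsad2 promoter window (chr12:26456403-26456702, minus strand) holds 1 ISRE core on the opposite strand, which begins 120 bases before the start as printed. It is shown as the promoter of the gene with the largest rise of the 10.
Rsad2: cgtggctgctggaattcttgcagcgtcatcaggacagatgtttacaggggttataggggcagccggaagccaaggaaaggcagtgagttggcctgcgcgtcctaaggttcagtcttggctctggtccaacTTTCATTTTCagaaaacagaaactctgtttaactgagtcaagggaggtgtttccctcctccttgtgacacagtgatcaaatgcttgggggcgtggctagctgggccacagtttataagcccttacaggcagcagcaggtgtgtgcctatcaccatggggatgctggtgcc
No match was found in the Cmpk2 window.

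Both Mx genes, which encode dynamin-like GTPases that trap viral nucleoprotein complexes, rose. Laboratory strains such as C57BL/6 are known to carry defective alleles of both, so their RNA does not stand for a working protein here. Mx1 (ENSMUSG00000000386, chromosome 16, 97447035 to 97462907) stood at 9.69 and 9.05 CPM in wild type and at 88.4 and 77.5 CPM in cKO-labelled libraries. Its log2 change was 3.15 ± 0.0983 (adjusted p 1.00e-16, edgeR), the smallest adjusted p of the 10. Mx2 (ENSMUSG00000023341, chromosome 16, 97535308 to 97560900) stood at 4.29 and 5.59 CPM in wild type and at 31.6 and 30.9 CPM in cKO-labelled libraries, with a log2 change of 2.65 ± 0.144 (adjusted p 1.26e-12, edgeR).

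Mx1 exceeded Mx2 in each library. Their ratio per base of exon was 2.15 and 1.55 in wild type, as against 2.67 and 2.40 under the knockout label, a 1.39-fold difference (exact permutation p = 0.333, the smallest possible). The starts lie 72.4 kb apart on opposite strands, and the gene rows between them stayed near 0, with 0 and 1 against 4 and 10 counts for Fam3b. GENCODE M21 classes Mx2 as a polymorphic pseudogene, and of its 10 transcripts of Mx1, 4 are classed as protein coding and 3 as subject to nonsense-mediated decay. The transcripts of both genes share few windows: 0.929% of the 100-base windows of Mx1 and 1.13% of those of Mx2 occur in the other.

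**Figure D3:**
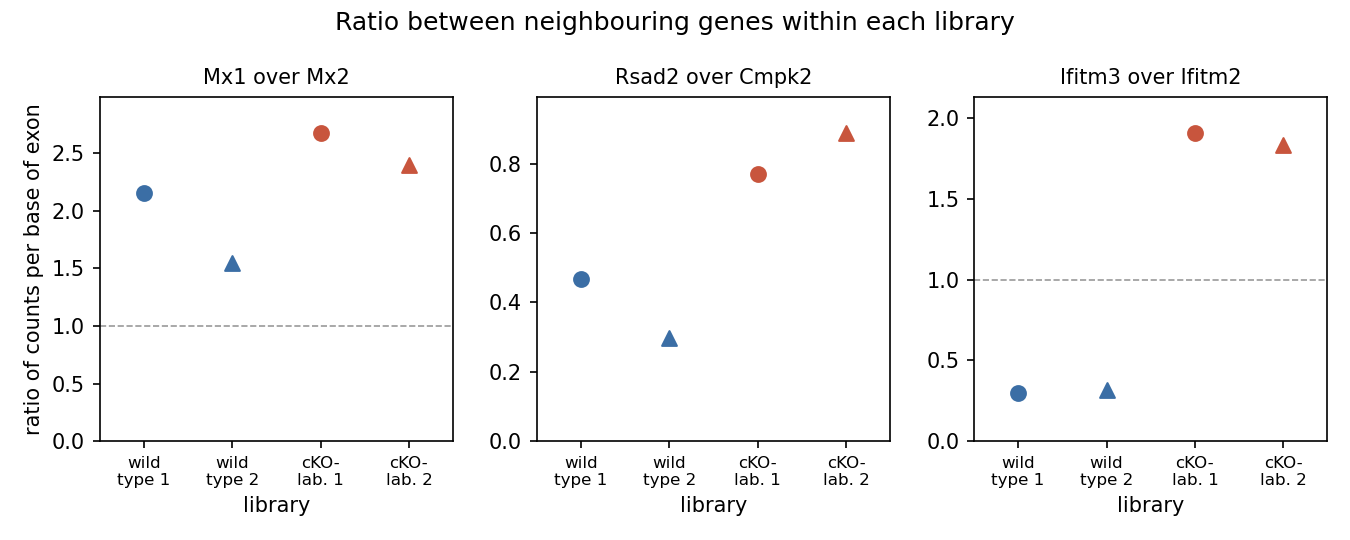
Ratio of counts per base of exon between neighbouring genes within each library (wild type blue, cKO-labelled red; the dashed line marks a ratio of 1, where it lies within the axis). As counted, Ifitm3 over Ifitm2 crosses 1 between genotypes, from 0.301 and 0.316 to 1.91 and 1.83. Part of the Ifitm2 sequence is shared with other genes, so its level and this crossing are uncertain.

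A further 3 effectors, which bind, unwind or degrade RNA inside the cell, rose by very different amounts. Ddx60 (ENSMUSG00000037921, chromosome 8, 61928087 to 62038244), an RNA helicase described as an aid to RIG-I-like receptors, stood at 6.67 and 6.15 CPM in wild type and at 34.7 and 30.8 CPM in cKO-labelled libraries. It rose by 2.35 ± 0.133 on the log2 scale (adjusted p 2.37e-12, edgeR). Isg20 (ENSMUSG00000039236, chromosome 7, 78913424 to 78920396), an exonuclease that degrades single-stranded RNA from the 3′ end, stood at 16.1 and 15.7 CPM in wild type and at 55.7 and 48.99 CPM in cKO-labelled libraries. Its change was 1.72 ± 0.0990 (adjusted p 3.39e-12, edgeR).

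Zc3hav1 (ENSMUSG00000029826, chromosome 6, 38305286 to 38354603), which encodes the zinc-finger antiviral protein ZAP that binds CpG-rich RNA and directs it to decay, already ranked high in wild type. It stood at 257 and 267 CPM in wild type and at 329 and 340 CPM in cKO-labelled libraries. The 2 libraries of each genotype lay close together and the genotypes did not overlap. The rise of 1.28-fold was the smallest of the 9 (log2 change 0.35 ± 0.0576, adjusted p 7.09e-05, edgeR). In wild type 90.1% of the tested genes had a lower FPKM, as against 16.8% for Ddx60. Gene counts do not separate the long and short forms of ZAP.

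The Ddx60 promoter window (chr8:61927837-61928136, plus strand) is shown for its pair of ISRE cores, which begin 53 and 19 bases before the start.
Ddx60: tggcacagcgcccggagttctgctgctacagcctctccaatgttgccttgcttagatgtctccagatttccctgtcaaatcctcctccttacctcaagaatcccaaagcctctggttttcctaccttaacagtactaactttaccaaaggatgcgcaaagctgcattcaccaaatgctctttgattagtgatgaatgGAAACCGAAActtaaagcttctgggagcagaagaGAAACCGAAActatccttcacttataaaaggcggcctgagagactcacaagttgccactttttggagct
The windows of Zc3hav1 (1) and Isg20 (3 starts) held no match to the ISRE core as searched. In 1 of the Isg20 windows there was 1 gamma-activated sequence.

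Bst2, or tetherin, which holds budding virus particles at the cell surface, was the most abundant of the 10 in both genotypes. Bst2 (ENSMUSG00000046718, chromosome 8, 71534255 to 71537456) stood at 73.4 and 78.7 CPM in wild type and at 153 and 150 CPM in cKO-labelled libraries. The ratio of any cKO-labelled to any wild-type library lay between 1.8998 and 2.08, and the log2 change was 0.99 ± 0.0625 (adjusted p 1.74e-11, edgeR). In the mouse, tetherin is also a surface marker of plasmacytoid dendritic cells and is found on plasma cells. Siglech, a defining marker of plasmacytoid dendritic cells, had 9 and 2 counts in wild type as against 3 and 14 under the knockout label, and Cd209d had none. The 6 markers of that cell type summed to 70.0 and 62.3 CPM against 58.2 and 73.2 CPM, nearly all of it Cox6a2 (called lower) and Pacsin1 (called higher), with Ccr9 tested and not called. The 5 plasma cell markers summed to 171 and 159 CPM in wild type and 242 and 251 CPM in cKO-labelled libraries. Of the 4 tested, 3 were called higher (Prdm1, Xbp1 and Jchain). Of the remaining markers, Sdc1 and Tnfrsf17, 1 was tested and not called, and the other was not tested. The part of plasma cells in the rise of Bst2 was not tested. The promoter window (chr8:71537423-71537722, minus strand) holds 2 overlapping ISRE cores, 130 and 124 bases before the start, and is shown for the most abundant of the genes. It also holds 1 gamma-activated sequence, an element found for 3 of the 8 genes with a window.
Bst2: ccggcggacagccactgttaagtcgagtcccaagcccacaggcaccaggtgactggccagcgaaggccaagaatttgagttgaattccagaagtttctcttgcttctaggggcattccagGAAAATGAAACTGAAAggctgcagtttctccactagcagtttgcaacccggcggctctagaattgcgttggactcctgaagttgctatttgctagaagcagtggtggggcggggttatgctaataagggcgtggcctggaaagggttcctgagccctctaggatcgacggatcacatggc

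Markers of other cell types differed between genotypes in the same libraries. The 7 conventional dendritic cell markers summed to 59.6 and 59.0 CPM in wild type and 114 and 119 CPM in cKO-labelled libraries, with 4 of the 5 tested called higher and Cd209a at 0. The 7 macrophage and monocyte markers summed to 117 and 113 CPM against 38.0 and 46.8 CPM, most of it Adgre1, the 1 of 4 tested that was called (lower), and Csf1r had 26 and 14 against 21 and 5 counts. Neutrophil markers summed to 1.07 to 1.10 CPM in wild type and 2.94 to 4.07 CPM in cKO-labelled libraries (Ly6g at 0, S100a9 called higher), and erythroid markers to 1.22 to 1.39 against at most 4.01 CPM (Hbb-bs and Hba-a1 called higher). NK cell markers, none of which could be tested, summed to 0.153 to 0.290 against 1.28 to 1.72 CPM. Of the T cell markers, Cd3e had 0 to 3 counts in any library, while Lck, which was called lower, made up most of the sum of 126 to 164 CPM. The part of these cells in the changes of the effector genes was not tested.

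Lists of the surrounding pathway were chosen in the same way as the 10 genes. Their calls are to be read beside the shares of all 14180 genes tested, 12.2% higher and 9.54% lower. Of 19 genes of interferon signalling, 11 were called higher and 1, Socs3, lower, with a median log2 change of 0.21. Usp18, which restrains the interferon receptor and takes ISG15 off its targets, rose from 14.1 ± 0.682 to 124 ± 5.31 CPM. Irf7, the transcription factor that amplifies interferon production, rose by 2.45 ± 0.0800 and Stat2, a subunit of ISGF3, by 1.18 ± 0.0613 on the log2 scale. The receptor chains Ifnar1 and Ifnar2 were not called, at 0.02 ± 0.0700 and -0.05 ± 0.0917, nor were the kinases Jak1 and Tyk2.

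Of 27 other restriction factors, 24 were tested, 19 were called higher and none lower (median 0.62). Isg15, the ubiquitin-like modifier, rose from 37.8 ± 4.90 to 166 ± 10.6 CPM, and Lgals3bp, a secreted glycoprotein, from 41.6 ± 1.24 to 144 ± 0.974 CPM. Trim30a, a TRIM protein of mice related to TRIM5, rose by 1.40 ± 0.0591 on the log2 scale. Among the 5 not called were Serinc5, Marchf8, Shfl and Cnp.

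Among 23 partners and cofactors of the effectors, all of them tested, 6 were called higher and 1 lower, with a median of -0.0078 (1 to 3 lower over the alternative settings). The higher ones were the RNA sensors Ifih1 (1.78 ± 0.0713), Eif2ak2 (1.37 ± 0.0632) and Ddx58 (1.26 ± 0.0705), the ZAP cofactor Trim25 (0.58 ± 0.0656), N4bp1 (0.48 ± 0.0740), which is related to Khnyn, and the signalling ubiquitin ligase Traf6 (0.34 ± 0.0657). Khnyn, the endonuclease that works with ZAP, stood at -0.10 ± 0.0601 and was not called, and none of the 8 exosome subunits was called. Fdps, the farnesyl diphosphate synthase that viperin has been reported to bind, was the lower one, at -0.52 ± 0.0823.

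Of 26 relatives of the effectors by protein family or reaction, 20 were tested, 4 were called higher and 2 lower. Their median log2 change was 0.0017. These counts are near the shares of all genes tested, 12.2% higher and 9.54% lower, so they set the relatives little apart. Parp12, a CCCH zinc-finger relative of ZAP that is itself interferon induced, rose by 2.82 ± 0.178, and the deoxycytidine kinase gene Dck by 0.44 ± 0.0756. The others called higher were Cmpk1 (0.21 ± 0.0628), the cytosolic counterpart of Cmpk2, and the dynamin gene Dnm3 (1.17 ± 0.381). Skiv2l, a helicase of the cytosolic exosome with sequence kinship to Ddx60, changed by -0.37 ± 0.0603, and the dynamin gene Dnm2 by -0.18 ± 0.0596. The dynamin-family genes Dnm1l, Opa1, Mfn1 and Mfn2 were not called. Neither were Dtymk, Isg20l2, Aen, Rexo4 and Zc3hav1l, the last of which encodes a shorter ZAP-like protein (0.25 ± 0.225). Without wild-type library 2, and also with DESeq2, 2 of the relatives were called higher and 1 lower. With the replicate block and the GC trend removed, 2 were called higher and 3 lower. The range over the settings was 2 to 4 higher and 1 to 3 lower.

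**Figure D4:**
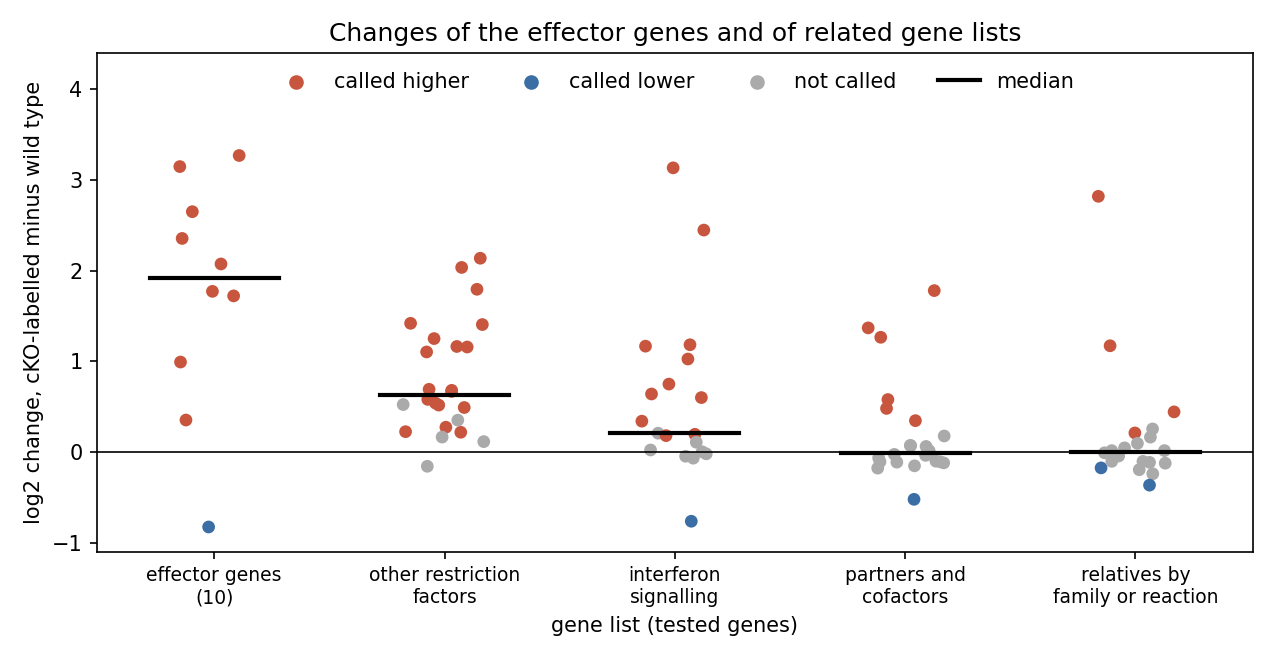
Log2 change (cKO-labelled minus wild type) of each tested gene in 5 lists, coloured by its call; black bars are list medians (1.92, 0.62, 0.21, -0.0078 and 0.0017 from left to right). Points are spread sideways for visibility.

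Genes outside the 10 with the most similar pattern were found by the Euclidean distance of centred log2 CPM over the 4 libraries, among the 10165 genes whose mean reached 5 CPM. With 4 libraries this measures little beyond the change between genotypes. The nearest gene was the oligoadenylate synthetase Oas3 for Mx1 (distance 0.0599), the calcium channel subunit gene Cacnb3 for Rsad2 (0.110), the GTPase gene Tgtp2 for Ddx60 (0.134) and Serpina3g, a serpin, for both Ifitm3 (0.0755) and Isg20 (0.0836). For Ifitm2 it was Cd24a (0.0587), the gene of a surface glycoprotein of B cells, which fell from 410 ± 10.6 to 231 ± 13.6 CPM. The others were Arhgef40 for Mx2 (0.174), Gm5431 for Cmpk2 (0.272), Meis3 for Bst2 (0.0165) and Scly for Zc3hav1 (0.0117).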

How the data were processed

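Libraries were made from poly(A) RNA with the NEBNext Ultra kit, per the labels' protocols, a kit without strand marking. The tools named in the submitters' processing notes are HTSeq 0.6.1, HISAT2 2.0.1, cutadapt 1.9.1 and bcl2fastq 2.17.1.14, with GRCm38; their roles and settings, the strand setting included, are not stated in the notes seen. The authors deposited whole-number read counts per gene. The deposited FPKM values, which recomputation from counts matched within 0.005, served to set levels between genes.

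Counts were filtered with filterByExpr (minimum count 10, minimum total 15), scaled by TMM and tested with edgeR 4.0.16 (quasi-likelihood, R 4.3.3), with Benjamini-Hochberg adjustment over 14180 genes and a threshold of 0.05. SE is the absolute log2 change over the square root of F. The test was also run on simulated data, with genes changed 4-fold, 2-fold or 1.5-fold. It recovered 67 of 67 genes changed 2-fold and 56 of 66 changed 1.5-fold, and 12 of its 202 calls were false. Changes smaller than 1.5-fold were not simulated. Same-genotype libraries differed by more than counting error (mean chi-square per gene 8.49 in wild type and 4.37 in cKO-labelled libraries). Ribosomal RNA rows, which differed between the wild-type libraries, were included in that mean. Separate mice are not stated, so p-values measure the spread between these libraries, which may be technical.

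The 10 genes, the lists and the tests were chosen with earlier results of these data known. Named were the 10 genes, the 3 called genes of smallest adjusted p in each pathway list and the gene nearest in pattern to each of the 10; other list members are named for a count, after their values were seen. All 159 list symbols were found, 2 under a newer symbol. Windows shared between transcripts and GC content came from GENCODE M21 (99.53% of rows matched), promoters from RefSeq on GRCm38.p6. The alternatives tried, DESeq2 among them, are in the closing section.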

Additional observations from a re-analysis of the deposited data

How the results depend on the processing

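Under each of the 12 alternatives run, 9 of the 10 effector genes were called higher and Ifitm2 lower, and no change of sign occurred. These were RLE size factors, DESeq2 1.42.0, no filter on low counts, a filter of 5 CPM in 2 libraries, the replicate block with and without removal of a GC trend, that removal alone, removal of ribosomal RNA rows, and leaving out each library. The log2 change of Ifitm2 lay between -0.92 and -0.74 (largest adjusted p 0.00192), that of Zc3hav1 between 0.32 and 0.37, Bst2 between 0.94 and 1.08, Cmpk2 between 1.77 and 2.47, and Rsad2 between 3.18 and 3.35. Over all genes, 3080 were called (1727 higher, 1353 lower). With DESeq2 1856 were called, 1118 higher and 738 lower, of which 1844 were among the 3080; the cause was not tested. Leaving out 1 library gave 2277 to 2713 calls (1293 to 1469 higher, 984 to 1252 lower); the lone library of a genotype is then assumed to vary like the others. Among 21 other named genes, 1 call was lost: Scly, the gene nearest in pattern to Zc3hav1, had an adjusted p of 0.0526 by DESeq2. Replicate numbers are shared between genotypes, but the labels do not say that they pair the samples. Deviations of same-numbered libraries from their genotype mean correlated at -0.029 over the genes tested. With 2 libraries per genotype this cannot show whether the samples were paired. The replicate block gave 3498 calls, and 2474 with the GC trend removed too. With 39 and 46 counts of Rsad2 in wild type, depth limits its ratio the most of the 10.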
